A study of Mus musculus with 6 samples.

Results

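The genes described here make the proteins that prepare, unwind and copy DNA and those that supply the deoxynucleotides for it. They were 44 named genes, chosen by function: 12 of origin licensing, 25 of the replication fork, 5 of nucleotide supply and 2 of chromatin assembly behind the fork. Of the 44, 43 had a probeset annotated with exactly 1 gene symbol. Rfc4, a clamp loader subunit, had only a probeset shared with Eif4a2 and was not measured here on its own. Another 3, Cdc6, Pola1 and Rrm1, lay below the median of all probesets on every array and stayed out of the tests, which left 40 of the 14020 genes tested.

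RNA was measured on 6 Mouse Gene 2.0 ST arrays, 2 per group. The labels give 10 blastocysts from each group and do not say whether each array had its own. All blastocysts came from let7g-transgenic mice. D4-act-7g is the activated group, taken on day 4. Dor-7g is the group that was dormant inside the mother, taken on day 7. In DOX-7g, also of day 7, DOX brought on dormancy in culture by inducing let-7. The labels do not give the promoter that drives the transgene, how dormancy was set up in vivo, whether the D4-act-7g and Dor-7g embryos met DOX, or whether 2 arrays of 1 group stand for separate mice or extracts. The p-values therefore measure only the spread between these arrays, and day, culture, DOX and let-7 cannot be told apart in DOX-7g. Day and dormancy cannot be told apart between Dor-7g and D4-act-7g.

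Before a cell can replicate, the origin recognition complex, Cdc6 and Cdt1 load the ring of Mcm2 to Mcm7 onto DNA. This is licensing, and geminin blocks it once S phase has begun. Cdc45 and the GINS proteins then turn the ring into a moving helicase, and polymerases, the sliding clamp and the single-strand binding protein RPA follow it. Ribonucleotide reductase, thymidine kinase and thymidylate synthase make the deoxynucleotides. Many of these genes are transcribed by E2F factors as cells enter the cycle. In diapause the blastocyst stops growing before implantation, and its cells all but stop dividing. let-7 microRNAs are known to restrain the cell cycle, and RRM2 has been reported as a let-7 target in human cells.

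The microRNA induced in this study has the mature sequence below. It is shown because its seed, bases 2 to 8 in capitals, is the part that pairs with targets.
mmu-let-7g-5p: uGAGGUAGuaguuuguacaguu
The Mirlet7g probeset read 3.46 and 3.20 on the DOX-7g arrays, 3.50 and 3.59 on the Dor-7g arrays and 3.31 and 3.56 on the D4-act-7g arrays, in log2 units. These levels lay below the array medians and the groups overlapped, so the probeset does not check the induction.

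Promoter windows of RefSeq (GRCm38.p6), from 250 bases before to 50 bases after an annotated start, were at hand for 36 of the 44 genes. They were searched on both strands for 4 words of the E2F type, TTTCGCGC, TTTGGCGC, TTTCCCGC and TTTGCCGC. These words can overlap one another on opposite strands, and the last C of a word can be the first base of a CCAAT. Of the 42 windows of these genes, 13 (31%) held such a word, against 2.26% of all 32851 windows. The median GC content was 58.8% in the windows of these genes and 52.7% in all windows. The words stood at 7 of 10 licensing genes and at none of 5 nucleotide supply genes. CCAAT was in 59.5% of these windows and in 37.4% of all. The 7 genes with a word and its 10 flanking bases on either side wholly upstream of the start are shown, 1 word each, read on the strand on which the word, in capitals, appears.
Orc1, chr4:108579417-108579444: ggagaaaactTTTCGCGCcactaaccga
Cdc6, chr11:98908003-98908030: ccccaggcgaTTTCCCGCtctccaccgg
Mcm5, chr8:75109346-75109373: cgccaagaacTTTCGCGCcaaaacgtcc
Mcm6, chr1:128359798-128359825: ggcgtatgctTTTGGCGCgaaaagtgcg
Mcm7, chr5:138172031-138172058: ggacaccctgTTTCCCGCggttcgaaat
Gins3, chr8:95633508-95633535: tcaaactcgcTTTCCCGCgccgcactcg
Pola1, chrX:93632276-93632303: cgggagtgcaTTTGGCGCcctgtgatga
The gene strand is + for Orc1, Cdc6, Mcm5 and Gins3 and - for Mcm6, Mcm7 and Pola1. At Mcm5 and Mcm6 a second word overlaps the first on the opposite strand. A match describes these letters only and is not a measured binding site.

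Both genes that passed the test, Rrm2 and Tk1, belong to nucleotide supply, and the 250 bases upstream of each are shown for that reason, on the gene strand with CCAAT in capitals.
Rrm2, chr12:24708004-24708253, strand +: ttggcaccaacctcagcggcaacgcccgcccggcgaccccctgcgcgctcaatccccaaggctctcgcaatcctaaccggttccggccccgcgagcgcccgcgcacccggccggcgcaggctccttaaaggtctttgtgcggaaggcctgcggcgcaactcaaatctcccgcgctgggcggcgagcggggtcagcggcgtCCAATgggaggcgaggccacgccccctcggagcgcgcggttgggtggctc
Tk1, chr11:117826015-117826264, strand -: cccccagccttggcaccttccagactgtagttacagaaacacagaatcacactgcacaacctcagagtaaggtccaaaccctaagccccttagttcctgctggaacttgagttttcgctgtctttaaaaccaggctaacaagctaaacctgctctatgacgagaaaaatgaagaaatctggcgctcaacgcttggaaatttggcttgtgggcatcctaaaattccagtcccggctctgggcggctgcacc
The CCAAT box of Rrm2 begins 50 bases before the start. Neither stretch held any of the 4 E2F words, and that of Tk1 held no CCAAT.

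Among the 6 arrays, 1 stood apart. Dor-7g replicate 1 had a median log2 value of 4.87 and the other 5 arrays had medians of 4.62 to 4.67, and Pearson's r of Dor-7g replicate 1 with other arrays did not exceed 0.919 over probesets. Of 12 blastocyst markers, 10 or 11 lay at or above the array median on each array, with Sox2 below it on all 6. Of 14 uterine epithelium markers 8 to 10 did so (summed log2 level 68.3 and 68.8 for D4-act-7g, 75.5 and 71.0 for Dor-7g, 69.9 and 72.3 in DOX-7g). Of 11 uterine stroma markers 6 to 9 did so (summed log2 level 54.1 and 54.7 for D4-act-7g, 58.4 and 62.1 for Dor-7g, 55.1 and 54.6 in DOX-7g), with Dcn at 9.29 on Dor-7g replicate 2 alone and at 3.67 to 4.22 on the other arrays. Of 9 blood and immune markers 4 and 5 did so on the D4-act-7g arrays, 6 and 6 on the Dor-7g arrays and 8 and 7 on the DOX-7g arrays (summed log2 level 41.5 and 42.3, 45.1 and 47.0, 60.9 and 60.4), and S100a9, of neutrophils, rose in Dor-7g and DOX-7g (2.21 and 5.00; limma, adjusted p = 0.0274 and 0.00112). Ly6g, also of neutrophils, rose in DOX-7g (3.54; limma, adjusted p = 0.00434), and S100a8 read 10.91 and 10.12 there against 3.28 and 3.16 in D4-act-7g (limma, adjusted p = 0.0949). In Dor-7g the change of Ly6g was 0.14 (limma, adjusted p = 0.826), and S100a8 read 2.81 and 7.18. Of the 8 blood and immune markers tested, S100a9 alone passed in Dor-7g, and Cd52 alone had a change below 0 (-0.88; limma, adjusted p = 0.43). Ptprc, which marks all leukocytes, read 3.57 to 3.82 throughout. Of 11 oocyte markers 5 to 8 did so (summed log2 level 59.5 and 58.0, 56.9 and 57.2, 55.3 and 54.5). The part of such cells in the results was not tested. In such bulk samples, fewer cells of a type and less RNA per cell cannot be told apart.

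The replication genes read lower in both dormant groups than in D4-act-7g, mostly by less than 1 log2 unit. In Dor-7g, 33 of 40 had a change below 0, against 43.3% of all genes, and in DOX-7g 38 of 40, against 58%. On both Dor-7g arrays 25 of 40 lay below both D4-act-7g arrays, against 21.5% of all genes, and on both DOX-7g arrays 30 of 40, against 30.5%. On all 4 dormant arrays 22 of 40 did so, against 13.4%. Groups lay apart in the other direction for 2 of 40 genes in Dor-7g (24.3% of all genes), 1 in DOX-7g (19.2%) and 1 on all 4 dormant arrays (9.14%). In the mean of both dormant groups 38 of 40 had a change below 0, against 48.9%. The median change of the 40 genes was -0.35 in Dor-7g and -0.39 in DOX-7g, beside medians of 0.06 and -0.05 for all genes. Both comparisons share the D4-act-7g arrays. These counts and medians describe the 40 genes that passed the filter and are not a test of the list. A gene could pass the filter through some groups alone, and Mcm4 and Pole did so with both DOX-7g arrays below the median.

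Single genes rarely passed. For each gene, limma took 1 spread shared by all 3 groups. A gap between the Dor-7g arrays therefore also widens the standard error (SE) of DOX-7g against D4-act-7g. In Dor-7g against D4-act-7g, 2 of 40 genes fell and none rose at an adjusted p under 0.05 in limma (0.984% of all genes passed, and 0.742% fell), and 11 had an unadjusted p under 0.05, all lower (8.81% of all genes). In DOX-7g against D4-act-7g, 0 of 40 passed in limma (0.956% of all genes did, and 0.25% fell), and 13 had an unadjusted p under 0.05, all lower (6.4% of all genes). With array weights in limma, only Rrm2 of the 40 fell in each of these comparisons (79 of all 14020 genes passed in Dor-7g and 461 in DOX-7g). Tk1 did not pass in Dor-7g with these weights (limma, adjusted p = 0.0511). Between DOX-7g and Dor-7g, 0 of 40 passed in limma (1.16% of all genes did), and 3 had an unadjusted p under 0.05 (11.6% of all genes). In the mean of both dormant groups against D4-act-7g, 1 of 40, Rrm2, fell at that threshold in limma (1.03% of all genes passed, and 0.563% fell), and 15 had an unadjusted p under 0.05, all lower in the dormant groups (8.49% of all genes).

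**Figure D1:**
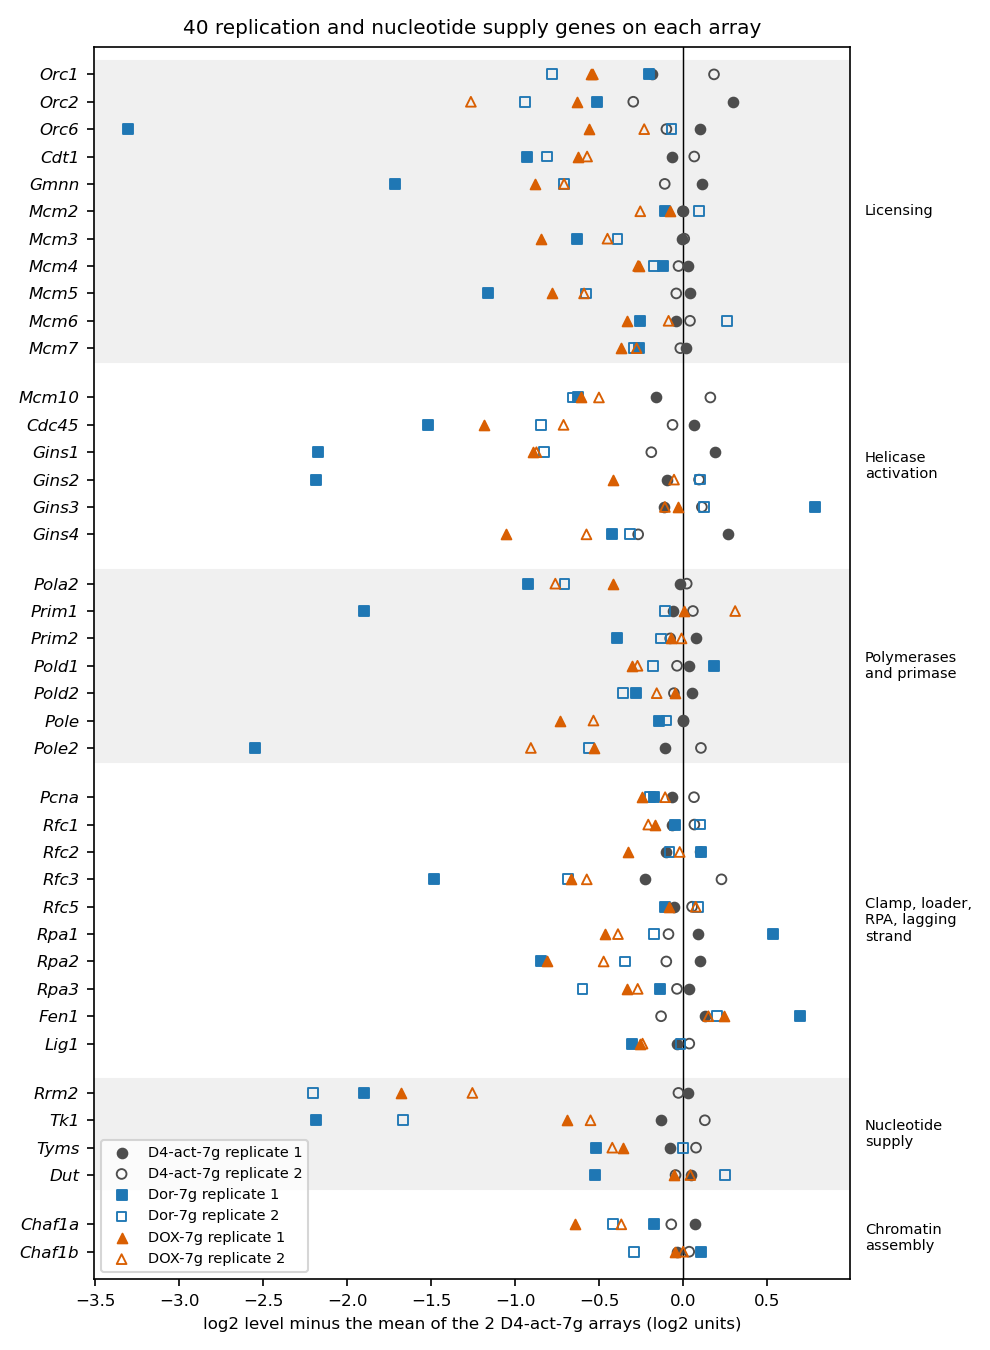
The horizontal axis gives each gene's log2 level on an array minus its mean on the 2 D4-act-7g arrays, in log2 units, and each row is 1 of the 40 genes tested, grouped by role. Filled symbols are replicate 1 and open symbols replicate 2; most squares (Dor-7g) and triangles (DOX-7g) lie to the left of the circles (D4-act-7g), with Rrm2 far to the left in both groups, Tk1 far to the left in Dor-7g, and Dor-7g replicate 1 far from replicate 2 for Orc6, Gins2, Prim1 and Pole2.

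Nucleotide supply held the 2 largest falls of the 40 genes in Dor-7g. Rrm2, the small subunit of ribonucleotide reductase, stood at 8.10 and 8.04 log2 units on the D4-act-7g arrays, at 6.17 and 5.87 on the Dor-7g arrays and at 6.39 and 6.82 on the DOX-7g arrays. Every dormant array was lower than every D4-act-7g array, and both Dor-7g arrays were also lower than both DOX-7g arrays. In Dor-7g it fell by 2.05 ± 0.22 on the log2 scale (SE, n = 2 each), 4.15-fold lower (limma, adjusted p = 0.0223). In DOX-7g the change was -1.47 ± 0.22 (limma, adjusted p = 0.0598), and between DOX-7g and Dor-7g it was 0.59 ± 0.22 (limma, adjusted p = 0.41). Over both dormant groups it fell by 1.76 on the log2 scale (limma, adjusted p = 0.0196). That call held in 9 of 14 alternatives. It was lost without DOX-7g replicate 1 or 2 (limma, adjusted p = 0.0665 and 0.0533), without D4-act-7g replicate 1 or 2 (0.222 and 0.198) and with the replicate number as a block (0.0625).

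A second Rrm2 probeset, dimmer than the first, ran the same way. It stood at 6.52 and 7.02 in D4-act-7g, at 5.39 and 4.86 in Dor-7g and at 5.20 and 4.90 in DOX-7g. Its differences from D4-act-7g were -1.65 in Dor-7g and -1.72 in DOX-7g, so by this probeset DOX-7g was no higher than Dor-7g. With both probesets averaged, Rrm2 passed in DOX-7g too (-1.59; limma, adjusted p = 0.0377).

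Tk1, the cytosolic thymidine kinase that salvages thymidine in S phase, stood at 9.44 and 9.70 in D4-act-7g, at 7.38 and 7.90 in Dor-7g and at 8.88 and 9.02 in DOX-7g. The 3 groups did not overlap: Dor-7g was lowest and DOX-7g lay between. Tk1 fell by 1.93 ± 0.24 in Dor-7g (SE, n = 2 each; limma, adjusted p = 0.0302), 3.8-fold. In DOX-7g its change was -0.62 ± 0.24 (limma, adjusted p = 0.426). The difference between DOX-7g and Dor-7g, 1.30 ± 0.24, had the smallest adjusted p of the 40 genes in that comparison and did not pass (limma, adjusted p = 0.102).

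With 1 Dor-7g array left out, the other has no spread of its own and is assumed to vary like the other groups. The changes in Dor-7g were then -2.20 and -1.90 for Rrm2 and -1.67 and -2.19 for Tk1, without replicates 1 and 2 respectively. Without D4-act-7g replicate 1 or 2 neither passed (limma, adjusted p = 0.188 and 0.175 for Rrm2, 0.188 and 0.227 for Tk1), with changes of -2.02 and -2.08 for Rrm2 and -2.06 and -1.80 for Tk1. Without either DOX-7g array, which only serve the estimate of the spread here, Tk1 did not pass (limma, adjusted p = 0.0915). Over 15 alternatives the adjusted p in Dor-7g ran from 0.0156 to 0.188 for Rrm2 and from 0.00759 to 0.227 for Tk1.

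The other nucleotide supply genes had smaller changes, none past the threshold. Tyms, thymidylate synthase, stood at 9.91 and 10.07 in D4-act-7g, at 9.47 and 9.99 in Dor-7g and at 9.63 and 9.57 in DOX-7g. Its change was -0.26 in Dor-7g, with a 95% interval of -0.82 to 0.30, and -0.39 in DOX-7g, with an interval of -0.95 to 0.17. Dut, the dUTPase that keeps uracil out of DNA, stood at 10.40 and 10.31, 9.83 and 10.61, and 10.30 and 10.40 in the same order, and its groups overlapped. Rrm1, the large subunit of ribonucleotide reductase, stood at 4.05 and 4.28 in D4-act-7g, at 4.34 and 4.04 in Dor-7g and at 3.86 and 4.27 in DOX-7g, below the median on all arrays, with overlapping groups.

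**Figure D2:**
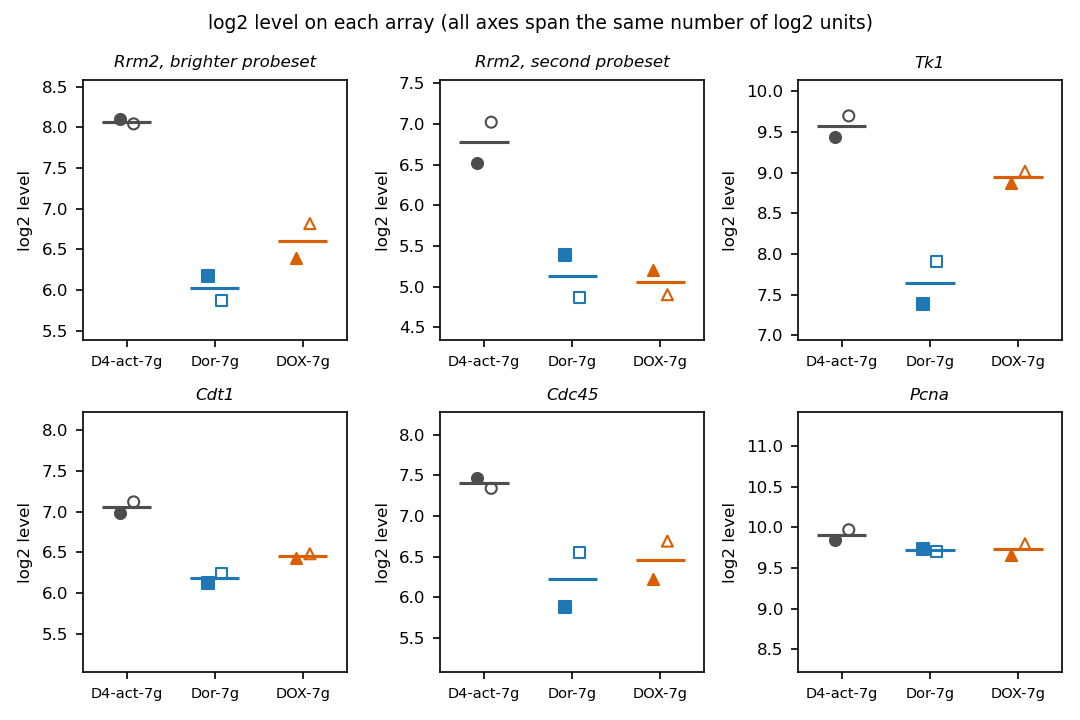
Each panel plots the log2 level of a gene (vertical axis) on the 2 arrays of each group (horizontal axis), filled for replicate 1 and open for replicate 2, with a bar at the group mean; all panels span the same number of log2 units. Both Rrm2 probesets, Tk1, Cdt1, Cdc45 and Pcna are lower on all dormant arrays than on the D4-act-7g arrays, Pcna by the least (-0.18 in both dormant groups).

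Most licensing genes read lower in both dormant groups, and none passed. All 11 that were tested lay below both D4-act-7g arrays on both DOX-7g arrays (30.5% of all genes did), and 8 of 11 did so in Dor-7g (21.5% of all genes). The filter shaped these counts: Mcm4 passed it with both DOX-7g arrays below the median, and Cdc6, whose groups overlapped, was left out. The median change of the 11 was -0.51 in Dor-7g and -0.54 in DOX-7g. Without Dor-7g replicate 1, Cdt1, Gmnn and Mcm5 were at -0.81, -0.71 and -0.58 against D4-act-7g, none past the threshold (limma, adjusted p = 0.114, 0.185 and 0.231).

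Cdt1, which loads the Mcm ring, stood at 6.99 and 7.12 in D4-act-7g, at 6.12 and 6.24 in Dor-7g and at 6.43 and 6.48 in DOX-7g. The 3 groups did not overlap. Its changes were -0.87 ± 0.17 in Dor-7g and -0.60 ± 0.17 in DOX-7g (SE, n = 2 each; limma, adjusted p = 0.102 and 0.257). Gmnn encodes geminin, the inhibitor of Cdt1, and stood at 12.16 and 11.94, 10.33 and 11.34, and 11.17 and 11.34 in the same order. All 4 dormant arrays were lower, and the changes were -1.21 ± 0.35 and -0.80 ± 0.35 (SE; limma, adjusted p = 0.212 and 0.495). The loader and its inhibitor thus read lower on the same arrays.

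The 6 subunits of the Mcm ring did not all read the same. Mcm5 stood at 7.09 and 7.01 in D4-act-7g, at 5.89 and 6.48 in Dor-7g and at 6.27 and 6.46 in DOX-7g, with changes of -0.87 ± 0.24 and -0.69 ± 0.24 (SE; limma, adjusted p = 0.205 and 0.388). Mcm3 stood at 6.04 and 6.05, 5.42 and 5.66, and 5.20 and 5.60, with changes of -0.51 and -0.65. Mcm7, Mcm4, Mcm2 and Mcm6 had smaller changes: -0.28, -0.15, -0.01 and 0.00 in Dor-7g and -0.32, -0.27, -0.17 and -0.21 in DOX-7g. For Mcm2 the 95% interval in Dor-7g was -0.45 to 0.43, so a change of the size seen for Rrm2 lies outside it. Mcm4 reached the array median on only 3 of 6 arrays, and both DOX-7g arrays were below it.

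The origin recognition genes Orc1 and Orc2 were also lower on all 4 dormant arrays, although Orc1 on Dor-7g replicate 1 (6.50) was close to the lower D4-act-7g array (6.52). Orc1 was at -0.49 in Dor-7g (-0.20 without replicate 2) and -0.54 in DOX-7g, and Orc2 at -0.73 and -0.95. Orc6 rested on 1 array. It stood at 9.07 and 8.87 in D4-act-7g, 8.41 and 8.74 in DOX-7g, and 5.67 and 8.90 in Dor-7g. Its change in Dor-7g of -1.69 ± 0.97 (SE) was -0.07 without replicate 1. Cdc6, which brings Cdt1 to the origin, read 3.99 to 4.56 on the 6 arrays, below each median, with overlapping groups.

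**Figure D3:**
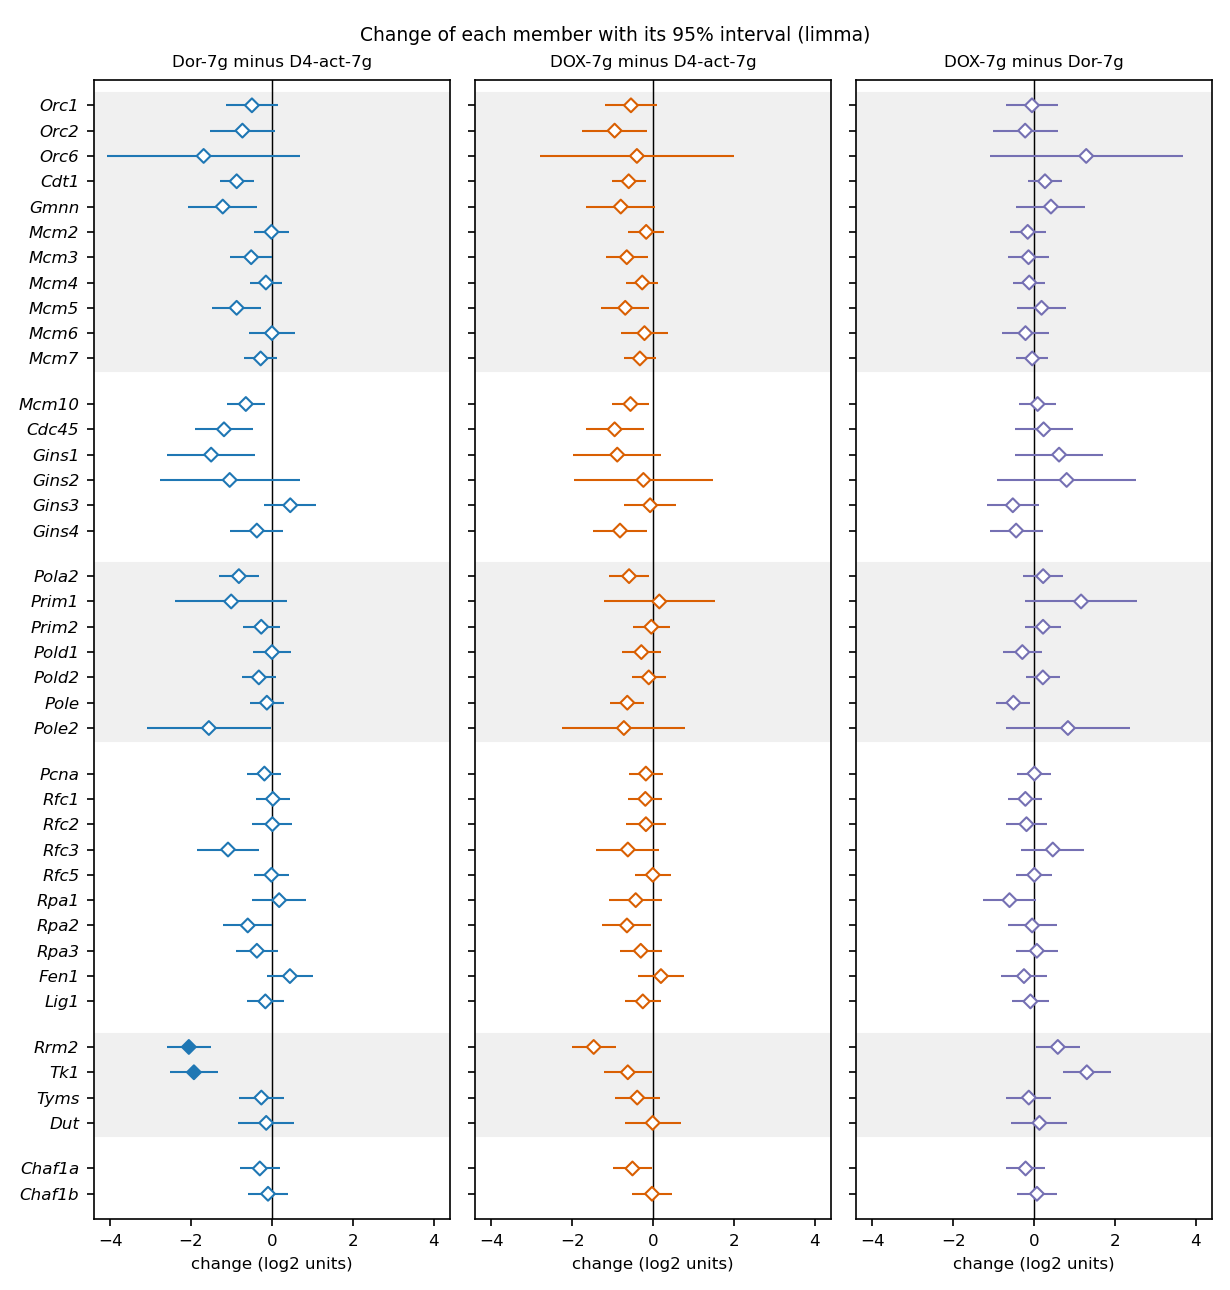
Each row is a gene, in the same order as in the plot of single arrays, and the horizontal axis gives its change in log2 units between the groups named above each panel; diamonds are limma estimates, lines their 95% intervals, and filled diamonds passed at an adjusted p under 0.05. Rrm2 and Tk1 are the only filled diamonds, both in Dor-7g minus D4-act-7g, and the intervals of Orc6, Gins2, Prim1 and Pole2 are the widest.

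At the fork, the median change was -0.84 in Dor-7g and -0.69 in DOX-7g for the genes that start the helicase, and closer to 0 for the polymerases (-0.32 and -0.29) and for the clamp and its partners. Against the D4-act-7g mean, the helicase median was -1.07 on Dor-7g replicate 1 and -0.49 on replicate 2, and the polymerase median -0.39 and -0.18, so without replicate 1 neither was farther from 0 in Dor-7g than in DOX-7g. None of these genes passed. Of the 6 helicase activation genes, 4 lay below D4-act-7g without overlap in Dor-7g (21.5% of all genes) and 4 in DOX-7g (30.5%). Cdc45 stood at 7.47 and 7.34 in D4-act-7g, at 5.89 and 6.55 in Dor-7g and at 6.22 and 6.69 in DOX-7g. Every dormant array was lower than every D4-act-7g array, and the changes were -1.18 ± 0.29 and -0.95 ± 0.29 (SE, n = 2 each; limma, adjusted p = 0.163 and 0.304). Mcm10, which helps to activate the helicase, stood at 6.19 and 6.51, 5.72 and 5.69, and 5.74 and 5.85 in the same order, with changes of -0.64 and -0.56.

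The 4 GINS genes, whose proteins form 1 complex, went different ways. Gins1 stood at 9.94 and 9.56 in D4-act-7g, at 7.58 and 8.92 in Dor-7g and at 8.86 and 8.88 in DOX-7g, a change of -1.50 ± 0.44 in Dor-7g (SE; limma, adjusted p = 0.218) that was -0.83 without replicate 1. Gins4 was lower by -0.37 and -0.81, with no overlap in either group, although Dor-7g replicate 2 (10.50) was close to the lower D4-act-7g array (10.55). Gins2 overlapped in both groups, and its -1.04 in Dor-7g was 0.10 without replicate 1. Gins3 was higher in Dor-7g, at 6.25 and 5.59 against 5.35 and 5.57, and did not pass (0.46; limma, adjusted p = 0.486); without replicate 1 the difference was 0.13.

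Of the 7 polymerase and primase genes tested, 6 lay below D4-act-7g without overlap in Dor-7g (21.5% of all genes) and 4 in DOX-7g (30.5%). Pola2, the accessory subunit of polymerase alpha, stood at 6.58 and 6.62 in D4-act-7g, at 5.68 and 5.89 in Dor-7g and at 6.18 and 5.84 in DOX-7g. Its changes were -0.81 ± 0.20 and -0.59 ± 0.20 (SE, n = 2 each; limma, adjusted p = 0.162 and 0.359). Pole, the catalytic subunit of the leading-strand polymerase epsilon, stood at 4.87 and 4.88, 4.73 and 4.78, and 4.14 and 4.34. It was lower in DOX-7g (-0.63 ± 0.17; limma, adjusted p = 0.236) than in Dor-7g (-0.12 ± 0.17; limma, adjusted p = 0.766), and the difference between those groups did not pass (-0.51; limma, adjusted p = 0.356). The levels of Pole lay close to or below the array median, and both DOX-7g arrays were below it. A dimmer second Pole probeset lay below the median on every array. It differed from D4-act-7g by -0.12 in Dor-7g and 0.10 in DOX-7g, so by this probeset Pole was not lower in DOX-7g.

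Pole2, the second subunit of polymerase epsilon, and Prim1, the catalytic primase, rested on Dor-7g replicate 1. Pole2 stood at 7.10 and 7.31 in D4-act-7g, at 4.65 and 6.64 in Dor-7g and at 6.67 and 6.30 in DOX-7g. Prim1 stood at 6.37 and 6.48, 4.52 and 6.32, and 6.43 and 6.73. Without that array their changes in Dor-7g were -0.56 and -0.11 in place of -1.56 and -1.01. Prim2, Pold1 and Pold2 had differences from D4-act-7g between -0.32 and 0.00. Pola1, the catalytic subunit of polymerase alpha, read 3.42 to 3.88 on the 6 arrays, below each median.

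The clamp, its loader, RPA and the genes of lagging-strand joining had the smallest median changes of the 6 classes: the median of 10 genes was -0.08 in Dor-7g and -0.22 in DOX-7g. Pcna, the sliding clamp, stood at 9.84 and 9.97 in D4-act-7g, at 9.74 and 9.71 in Dor-7g and at 9.66 and 9.80 in DOX-7g. The groups did not overlap, but the difference was small, with 95% intervals of -0.60 to 0.24 and -0.59 to 0.24. Rfc1, Rfc2 and Rfc5, all loader subunits, were at 0.03, 0.01 and -0.01 in Dor-7g and at -0.19, -0.17 and 0.00 in DOX-7g.

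Rfc3 was the loader subunit that read lower. It stood at 7.91 and 8.37 in D4-act-7g, at 6.66 and 7.45 in Dor-7g and at 7.47 and 7.57 in DOX-7g. The changes were -1.08 ± 0.31 and -0.62 ± 0.31 (SE, n = 2 each; limma, adjusted p = 0.215 and 0.583), and the first was -0.69 without Dor-7g replicate 1. Rpa2, the middle subunit of RPA, stood at 7.00 and 6.80, 6.05 and 6.55, and 6.09 and 6.43, lower on all 4 dormant arrays, with changes of -0.60 and -0.64, the first of which was -0.35 without Dor-7g replicate 1. Rpa1, the large subunit, stood at 6.26 and 6.08, 6.71 and 6.0, and 5.71 and 5.78, and differed by -0.61 between DOX-7g and Dor-7g (limma, adjusted p = 0.462), or by -0.25 without Dor-7g replicate 1. Rpa3, the small subunit, was at -0.37 (-0.14 without Dor-7g replicate 2) and -0.30, and Lig1, which seals nicks between Okazaki fragments, at -0.16 and -0.25. By a second Rpa3 probeset, above the array median on every array, the changes were -0.19 in Dor-7g and -0.44 in DOX-7g. By that probeset Rpa3 on Dor-7g replicate 1 (10.44) was above both D4-act-7g arrays. Fen1, the flap endonuclease, read higher in both dormant groups (0.45 and 0.20), with no overlap and without passing (limma, adjusted p = 0.443 and 0.889). The first was 0.20 without Dor-7g replicate 1, and the lower DOX-7g array (5.08) was close to the higher D4-act-7g array (5.06). By a dimmer second Fen1 probeset, below the array median on every array, the changes were -0.21 in Dor-7g and -0.07 in DOX-7g.

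Of the chromatin assembly factor genes, Chaf1a stood at 6.05 and 5.91 in D4-act-7g, at 5.80 and 5.56 in Dor-7g and at 5.33 and 5.61 in DOX-7g. All dormant arrays were lower, with changes of -0.30 and -0.51 (limma, adjusted p = 0.545 and 0.435). Chaf1b stood at 6.32 and 6.39, 6.46 and 6.06, and 6.31 and 6.36, and its groups overlapped.

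The arrays of Dor-7g differed more from each other than those of the other groups. The median absolute gap between replicates over the 40 genes was 0.13 in D4-act-7g, 0.14 in DOX-7g and 0.41 in Dor-7g. In Dor-7g 6 of 40 genes were lower on replicate 1 by over 1 log2 unit, against 8.1% of all genes, and in the other groups none was. The 6 were Orc6, Gins2, Pole2, Prim1, Gins1 and Gmnn. Without Dor-7g replicate 2, 12 of 40 genes passed as lower in Dor-7g against D4-act-7g (1172 of all 14020 genes passed, 898 of them lower), with the lone array assumed to vary like the other groups, and without replicate 1 only Rrm2 and Tk1 did (265 of all genes passed). Without replicate 1, 32 of 40 genes still had a change below 0 in Dor-7g, with a median of -0.29, and 28 lay below both D4-act-7g arrays, against 42% of all genes.

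**Figure D4:**
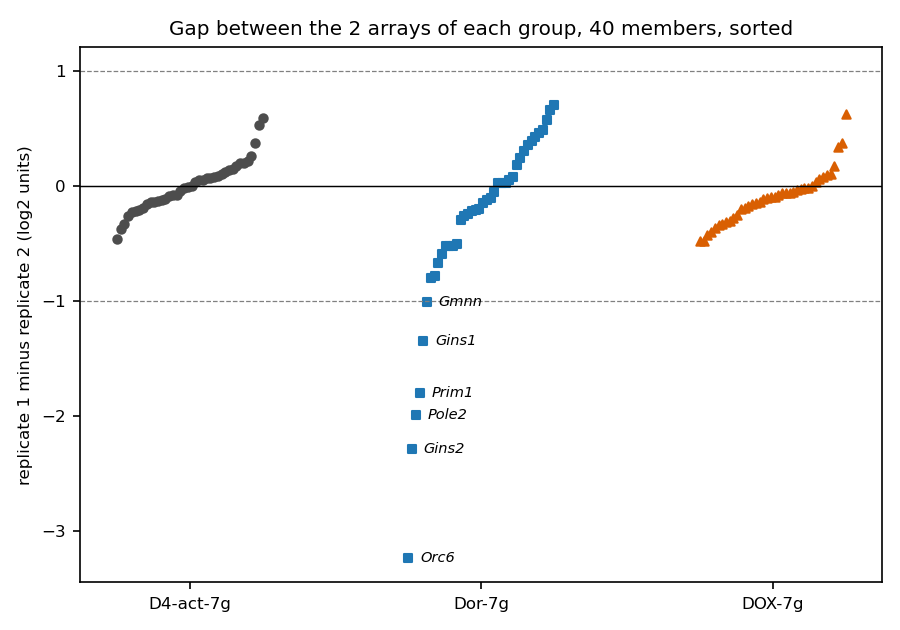
The vertical axis gives the log2 level on replicate 1 minus that on replicate 2 for each of the 40 genes, sorted within each group on the horizontal axis, with dashed lines at 1 and -1. Only Dor-7g has genes beyond a line, 6 genes that were lower on replicate 1, the farthest of them Orc6.

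DOX-7g and Dor-7g were compared directly to ask whether these genes differ between the kinds of dormancy. The median difference of the 40 genes was 0.01, beside -0.11 for all genes, and 19 of 40 were lower in DOX-7g (62.9% of all genes were). This count depended on Dor-7g replicate 1: without that array most of the 40 genes were lower in DOX-7g. Without overlap, 7 were lower in DOX-7g (26.7% of all genes) and 8 were higher (15% of all genes). The 3 genes with an unadjusted p under 0.05 were Tk1 and Rrm2, higher in DOX-7g, and Pole, lower there. By their dimmer second probesets, Rrm2 and Pole differed by -0.07 and 0.22, in the opposite directions. Without Dor-7g replicate 2, 6 genes passed as higher in DOX-7g: Orc6, Gins1, Gins2, Prim1, Pole2 and Tk1 (880 of all 14020 genes passed, 710 of them higher). Of these, Tk1 alone was higher in DOX-7g by over 1 log2 unit without replicate 1 too (1.04; limma, adjusted p = 0.116).

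A further 103 genes of the same pathways were set beside these, in 7 lists, and 82 of them were tested. None passed in limma in Dor-7g against D4-act-7g or in DOX-7g against D4-act-7g, and 21 and 14 had an unadjusted p under 0.05 (14.3% and 11% of all genes). Between DOX-7g and Dor-7g none passed either, and 10 had an unadjusted p under 0.05 (11.6% of all genes), a share near that of all genes. Their median change was -0.24 in Dor-7g and -0.25 in DOX-7g, and 58 and 67 of 82 had a change below 0 (43.3% and 58% of all genes).

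Of 11 other licensing and firing genes, Orc4 stood at 7.90 and 7.64 in D4-act-7g, at 5.10 and 6.27 in Dor-7g and at 7.30 and 7.19 in DOX-7g, a change of -2.08 in Dor-7g (limma, adjusted p = 0.0932), and Mcm8 differed by -0.70 between DOX-7g and Dor-7g (limma, adjusted p = 0.27). With Dor-7g replicate 1 or 2 left out, Orc4 passed in Dor-7g (-1.50 and -2.67; limma, adjusted p = 0.0451 and 0.00475). Of 16 other fork genes, Pole3 was lower by -0.98 in DOX-7g and Dscc1 by -1.46 in Dor-7g (limma, adjusted p = 0.308 and 0.242), where Dscc1 stood at 5.76 on replicate 1 and 7.10 on replicate 2 against 7.59 and 8.19 in D4-act-7g. Of 14 other deoxynucleotide genes, Dctd, the dCMP deaminase, was lower in Dor-7g (-1.32; limma, adjusted p = 0.0834). Mthfd2, of mitochondrial folate metabolism, differed by 1.31 between DOX-7g and Dor-7g (limma, adjusted p = 0.0836). Mthfd2 passed under a second quantile normalization and with each array centred on its median (limma, adjusted p = 0.038 in each). Its difference was 1.53 without Dor-7g replicate 1 and 1.09 without replicate 2.

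Of 17 genes of purine and pyrimidine synthesis, Adssl1, an adenylosuccinate synthase of muscle, was higher in Dor-7g (1.15) and DOX-7g (0.96). Neither change passed (limma, adjusted p = 0.0588 and 0.103). Adssl1 passed in Dor-7g under a second quantile normalization and with every array required above its median (limma, adjusted p = 0.0493 and 0.0472). In DOX-7g it passed with array weights (limma, adjusted p = 0.0283). Without Dor-7g replicate 2 its change in Dor-7g was 1.18. Prps2, which makes the ribose phosphate donor, stood at 6.40 and 5.74 in D4-act-7g, at 4.64 and 7.10 in Dor-7g and at 9.37 and 9.69 in DOX-7g, a change of 3.46 ± 0.77 in DOX-7g (SE, n = 2 each; limma, adjusted p = 0.163). Of 8 other chromatin genes, the histone chaperone gene Asf1b was at -1.55 in Dor-7g and -1.28 in DOX-7g (limma, adjusted p = 0.0843 and 0.152) and Mms22l at -0.41 and -0.93.

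The last lists hold regulators. The 10 tested genes of E2F factors, DP factors, pocket proteins and their partners had medians of -0.11 in Dor-7g and -0.33 in DOX-7g. Lin37, 1 of the partners, was at -0.49 and -0.67 and Tfdp2 at 0.28 and -0.61. Of 6 cyclin and kinase genes of S phase, Ccna2, cyclin A2, was at -1.83 in Dor-7g and -0.49 in DOX-7g (limma, adjusted p = 0.0813 and 0.706; 0.0119 for the first without Dor-7g replicate 2), and Ccne1, cyclin E1, at -0.86 and -0.66 (limma, adjusted p = 0.108 and 0.216).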

How the data were processed

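The deposited table gives 1 log2 expression value for each of 41345 probesets on each of 6 arrays. RMA, which corrects background, normalizes and summarizes probes, and Partek 6.6 appear in the submitters' processing notes without settings. No build of the probe design was given in the sources used here. Gene symbols came from the platform's annotation and were updated through Entrez identifiers. A probeset entered if it had exactly 1 symbol (23521 did) and reached the array's median on at least 2 of 6 arrays, and the brightest per gene stood for it. limma 3.58.1 under R 4.3.3 fitted a mean for each group to the 6 arrays jointly, with no block. The p-values were adjusted over 14020 genes (Benjamini-Hochberg, threshold 0.05), and 95% intervals use the moderated SE with 3 residual and 2.81 prior degrees of freedom. An exact permutation test of 2 against 2 arrays cannot go below p = 0.333, so none was used. The number of arrays limits the precision. The fit was tested on simulated data.

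The members and gene lists were chosen with earlier results of these data known. Values on every array are given for members that passed, for nucleotide supply, and for the 3 members with the smallest p in each other class; values of further members on single arrays were added after they had been seen. Of each pathway list, the 2 genes with the smallest p are named. Alternatives were other scalings, filters, variance models and probeset rules, weights for arrays, a replicate block, fits to fewer arrays and leaving out each array in turn.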

Additional observations from a re-analysis of the deposited data

How the results depend on the processing

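With 2 arrays a group, changes near 1 log2 unit rarely pass, and a fall is hard to see in genes below the array median. Counts of genes called moved by over 1.5 times under several settings. For Dor-7g versus D4-act-7g all genes gave 138, and 79 with array weights, 82 with a replicate block and 86 with only the arrays compared; the members called were 2, and 1 under each of these settings. For DOX-7g versus D4-act-7g all genes gave 134, and 68 with every array required above its median, 461 with array weights and 296 with only the arrays compared; the members called were 0, and 1 (Rrm2) with array weights, averaged probesets or only the arrays compared. For DOX-7g versus Dor-7g all genes gave 163, and 81 with the stricter filter, 104 with array weights and 86 with only the arrays compared. For the mean of Dor-7g and DOX-7g versus D4-act-7g all genes gave 145, and 241 with array weights and 94 with the replicate block, and the members called were 1, 2 and 0.

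Leaving out each array in turn gave 11 to 1172 genes for Dor-7g versus D4-act-7g, 43 to 296 for DOX-7g versus D4-act-7g, 67 to 880 for DOX-7g versus Dor-7g and 6 to 886 for the mean of both, with 0 to 12, 0 to 1, 0 to 6 and 0 to 12 members called. The highest counts of the 3 comparisons with Dor-7g came without Dor-7g replicate 2; the lowest of those with D4-act-7g came without a D4-act-7g array. The members' median then ran from -0.41 to -0.29, -0.42 to -0.32, -0.092 to 0.080 and -0.45 to -0.30 in the same order. Centring each array on its median moved the median of all genes by -0.13 in Dor-7g versus D4-act-7g and put the members' median at -0.47, at 0.14 for DOX-7g versus Dor-7g and at -0.45 for the mean of both; relative to all genes the members lay at -0.41 in Dor-7g with and without centring. With no filter the members' median in DOX-7g versus D4-act-7g was -0.32. The cause of these shifts was not tested. The members with a change below 0 stayed within 1.5 times of their count under each alternative. Deviations of same-numbered replicates from their group means correlated over genes at -0.02 (Dor-7g and D4-act-7g), -0.01 (DOX-7g and D4-act-7g) and -0.14 (Dor-7g and DOX-7g). With 2 arrays a group, these values cannot settle whether the replicate numbers pair the samples. With the replicate block Rrm2 in Dor-7g was at an adjusted p = 0.059 in limma. A crossed pairing of DOX-7g and Dor-7g, added after the data were seen, gave 127 genes. For the mean of both groups the fit on only the arrays compared is the fit reported.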
